A study of Mus musculus with 6 samples.

Results

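Promoter accessibility of 8 mesenchymal genes was described in medullary thymic epithelial cells with and without the histone acetyltransferase KAT7. The 8 genes, Thy1, Pdgfra, Pdgfrb, Postn, Acta2, Dcn, Lum and Fap, were taken by gene symbol from 27095 genes with a counted window each, and each had 1 window. They had been picked with the difference between the groups in view, above all the loss at Thy1 and the gain at Acta2. Their differences between knockout and wildtype are therefore given as a description, with no test. Accessibility was measured by ATAC-seq, in which the Tn5 transposase cuts open DNA, in epithelial cells of the mouse thymic medulla that carry much MHC class II, all on the C57BL/6 background. There were 3 Kat7-knockout and 3 wildtype libraries, described by the submitters as biological replicates. No source used here gives how Kat7 was deleted, which part of it, or the age of the mice.

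Fibroblasts and mural cells build and hold the stroma of the thymus, the capsule, septa and vessel walls, around an epithelium that does not belong to their lineage. PDGF receptors on these cells bind PDGF ligands that epithelium and endothelium release, and fibroblasts deposit collagens bound by small proteoglycans such as decorin and lumican. Smooth muscle alpha-actin marks contractile mural cells and myofibroblasts, whose contractile genes are driven by serum response factor through CArG boxes. THY1 is a surface glycoprotein of fibroblasts and, in mice, of T cells and thymocytes. An open promoter is not expression, and in pooled cells a change in the share of cells with an open promoter and a change in openness per cell cannot be told apart.

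The libraries held between 15482439 and 19832326 counts in gene windows. Levels are CPM, counts relative to the library total after scaling by TMM factors, and a fold change is given as log2 of knockout over wildtype with its standard error (SE). Each of the 8 windows was 5001 bases long, and the gene start in RefSeq's gene table (GRCm38.p6) lay 3000 bases into it for Thy1, Dcn and Lum, 2977 for Pdgfrb, 2751 for Acta2, 2031 for Pdgfra, 1512 for Fap and 1160 for Postn. The Kat7 window, whose place relative to the deleted part is not known, had 11.9, 13.2 and 38.3 CPM in knockout libraries 1 to 3, against 291, 238 and 272 CPM in wildtype libraries 1 to 3. Of 24817 windows that passed the filter on low counts, 20.2% were lower and 6.36% higher in knockout at an adjusted p under 0.05 (edgeR's quasi-likelihood test with Benjamini-Hochberg adjustment). Of the calls, 23.9% were on the higher side, a figure that came to 35.6% with scaling by library totals alone and 47.0% under loess. Without wildtype library 1, 689 windows were higher in place of 1578, and without knockout library 1, 3177. Windows of thymic epithelial markers were the open ones, with a median of 30.7 CPM per kb over 12 windows, among them Epcam at 33.5 CPM per kb in knockout and 30.1 in wildtype. The 8 mesenchymal windows had a median of 3.22 CPM per kb, and all tested windows one of 2.09.

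Sequences before an annotated start are shown for 3 of the 8 genes, Acta2, Postn and Pdgfra, since accessibility was counted around these starts. Thy1, Dcn, Lum and Fap had no entry in RefSeq's promoter table (GRCm38.p6), and the sequence of Pdgfrb is not reported here. Each printed stretch is the 250 bases before the annotated start, 5′ to 3′ on the gene's strand, at chr19:34255374-34255623 (minus strand), chr3:54360857-54361106 (plus strand) and chr5:75152001-75152250 (plus strand). The annotated start here is that of the promoter entry, which differs from the gene table's start given above. It lay 37 bases from the point 3000 bases into the window for Acta2, 0 for Postn and 40 for Pdgfra. Capitals mark TATAAA and CArG-like decamers.
Acta2: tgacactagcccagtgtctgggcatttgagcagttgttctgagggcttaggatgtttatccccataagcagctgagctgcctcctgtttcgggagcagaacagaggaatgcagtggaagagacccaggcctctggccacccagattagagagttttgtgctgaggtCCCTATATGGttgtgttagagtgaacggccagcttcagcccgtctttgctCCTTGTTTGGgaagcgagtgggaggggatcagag
Postn: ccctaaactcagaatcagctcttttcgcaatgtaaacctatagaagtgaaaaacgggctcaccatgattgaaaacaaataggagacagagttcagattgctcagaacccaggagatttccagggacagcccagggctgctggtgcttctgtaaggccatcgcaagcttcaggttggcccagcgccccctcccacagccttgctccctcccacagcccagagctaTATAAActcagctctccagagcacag
Pdgfra: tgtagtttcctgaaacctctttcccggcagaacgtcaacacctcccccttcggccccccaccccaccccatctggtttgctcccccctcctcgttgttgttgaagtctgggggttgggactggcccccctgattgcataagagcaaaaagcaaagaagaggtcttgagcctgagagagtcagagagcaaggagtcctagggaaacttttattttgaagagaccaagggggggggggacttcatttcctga
The Acta2 stretch held a pair of CArG-like decamers, CArG boxes with 1 departure from A or T among their 6 centre bases, starting 84 and 34 bases before the annotated start. Allowing that departure was chosen after the sequence was seen. No CArG box without a departure was in these letters. Of 27018 promoters, 8.64% held a decamer of the looser kind and 1.40% a CArG box without a departure, on either strand. Postn held TATAAA 26 bases before its start, as did 13.0% of promoters anywhere in the 250 bases on either strand. Acta2 also held CAGCTG (12.8% of promoters) and CAGACA (17.1%), and none of the 3 printed stretches held GGGCGG (32.9%). The motifs searched share no letters with each other here. The 3 sequences were alike in CpG content, with 4 CpG each and an observed over expected ratio of 0.231 in Acta2, 0.244 in Postn and 0.216 in Pdgfra, where all promoters had a median of 0.378 and a lower quartile of 0.165. Among these 3 genes Acta2 was the more open in knockout, and Postn and Pdgfra were the less open.

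Thy1 showed the largest difference of the 8 genes. Its window (gene identifier 21838, chromosome 9, 44040384 to 44045384, mm10, plus strand) held 8.25, 8.0 and 9.72 CPM in knockout libraries 1 to 3, against 42.6, 39.2 and 45.1 CPM in wildtype libraries 1 to 3. Raw counts were 144, 134 and 159 in knockout and 831, 614 and 764 in wildtype. The groups lay far apart, and the knockout libraries differed little among themselves. Knockout averaged 8.66 ± 0.929 CPM and wildtype 42.3 ± 2.95 CPM (SD, n = 3 each). The log2 fold change was -2.29 with an SE of 0.126, and the ratio of wildtype to knockout was 4.89. It was the 53rd lowest log2 fold change of the 24817 tested windows. In wildtype its window was more open than 67.7% of tested windows, and in knockout than 51.1%.

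THY1 is also a defining surface protein of thymocytes, the most numerous cells of the thymus, so promoters of other thymocyte genes are given beside it. Of 16 thymocyte markers, 13 were tested, 3 rose and none fell, beside 6.36% and 20.2% of all tested windows. The median log2 fold change of the list was 0.24, against 0.04 over all tested windows. At an unadjusted p under 0.05, 1 was lower, and DESeq2 called none lower; 1 was called lower without knockout library 3. Those that rose were Themis, a T cell receptor signalling gene (1.16, SE 0.228, adjusted p = 3.36e-06), Cd8a (0.86, adjusted p = 0.00664) and Cd4 (0.73, adjusted p = 0.0399). Cd8a and Cd4 were at low levels, with means of 4.38 and 3.85 CPM in knockout and 2.41 and 2.34 CPM in wildtype. Cd3e, a chain of the T cell receptor complex, had 7.57 ± 0.978 CPM in knockout and 7.45 ± 0.835 CPM in wildtype (0.02, adjusted p = 0.952), a value that turned to -0.0011 with library totals and passed after loess at 0.46, adjusted p = 0.0214, the lowest of alternatives that reached 0.998. Cd3d, whose window lies mostly inside another, had 2 to 5 counts per library and was not tested. Summed over the list, the marker windows held 191 to 205 CPM in knockout and 172 to 186 CPM in wildtype, and none of the 16 was without counts. The thymocyte list was thus somewhat more open where Thy1 was less open; its part in the result was not tested. Cd8a did not pass without wildtype library 2 (adjusted p = 0.1, the highest of its alternatives, which began at 0.000374). Cd4 passed without knockout library 1 but in no other fit that left out a library (adjusted p up to 0.233 over its alternatives, from 0.00204), the highest being that without wildtype library 1.

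The PDGF receptors, tyrosine kinases that carry growth signals into mesenchymal cells, were both less open in knockout, and Pdgfrb by more. Pdgfrb, the receptor of pericytes and other mural cells (identifier 18596, chromosome 18, 61042150 to 61047150), had 16.6, 16.1 and 15.9 CPM in knockout libraries 1 to 3, against 39.8, 34.2 and 35.2 CPM in wildtype libraries 1 to 3. The 3 knockout libraries were close together and lay below every wildtype library. The means were 16.2 ± 0.345 CPM in knockout and 36.4 ± 2.97 CPM in wildtype (SD, n = 3 each; log2 fold change -1.17, SE 0.118). Pdgfra, the receptor that marks fibroblasts (identifier 18595, chromosome 5, 75149291 to 75154291), had 11.2, 12.2 and 13.3 CPM in knockout libraries and 18.1, 17.8 and 17.9 CPM in wildtype libraries. Its groups did not overlap either, but the difference was smaller (12.2 ± 1.08 CPM in knockout and 17.9 ± 0.162 CPM in wildtype; log2 fold change -0.55, SE 0.130), and it shrank to -0.12 after loess normalisation.

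Postn, which encodes periostin, a matrix protein that fibroblasts secrete (identifier 50706, chromosome 3, 54358107 to 54363107), had 6.36, 6.45 and 7.83 CPM in knockout libraries 1 to 3, against 14.5, 16.5 and 16.2 CPM in wildtype libraries 1 to 3. Knockout lay below wildtype in every library, at 6.88 ± 0.822 against 15.7 ± 1.07 CPM (SD, n = 3 each; log2 fold change -1.19, SE 0.146; -0.73 after loess normalisation). The window holds the motif TATAAA shown above. Fap, a membrane serine protease of activated fibroblasts (identifier 14089, chromosome 2, 62572021 to 62577021, minus strand), was the exception among the 8. It had 11.0, 12.9 and 11.1 CPM in knockout libraries and 11.4, 15.9 and 14.4 CPM in wildtype libraries. These ranges overlapped (11.7 ± 1.06 CPM in knockout and 13.9 ± 2.31 CPM in wildtype; log2 fold change -0.24, SE 0.137), and the sign turned after loess normalisation (0.21).

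Acta2, the gene of smooth muscle alpha-actin, was more open in knockout. Its window (identifier 11475, chromosome 19, 34253336 to 34258336, minus strand) held 75.4, 64.2 and 61.5 CPM in knockout libraries 1 to 3, against 27.9, 36.2 and 27.3 CPM in wildtype libraries 1 to 3. Raw counts were 1315, 1075 and 1005 in knockout and 544, 566 and 462 in wildtype. Every knockout library lay above every wildtype library, with knockout library 1 the highest and wildtype library 2 the nearest to knockout. The means were 67.0 ± 7.36 CPM in knockout and 30.4 ± 4.97 CPM in wildtype (SD, n = 3 each). The log2 fold change was 1.14 with an SE of 0.114, a 2.20-fold higher level. It was the 267th highest log2 fold change of the tested windows.

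Dcn and Lum, neighbours on chromosome 10 that encode the collagen-binding proteoglycans decorin and lumican, were the other genes more open in knockout. Dcn (identifier 13179, 97476500 to 97481500) had 22.0, 24.5 and 20.3 CPM in knockout libraries 1 to 3, against 9.69, 14.3 and 12.2 CPM in wildtype libraries 1 to 3. Lum (identifier 17022, 97562501 to 97567501) had 15.0, 13.5 and 16.5 CPM in knockout libraries, against 8.35, 11.5 and 8.57 CPM in wildtype libraries. For both genes the groups did not overlap, and wildtype library 2 was the highest of its group. Dcn averaged 22.3 ± 2.10 CPM in knockout and 12.0 ± 2.29 CPM in wildtype (log2 fold change 0.89, SE 0.127; 1.30 after loess normalisation). Lum averaged 15.0 ± 1.51 CPM in knockout and 9.47 ± 1.76 CPM in wildtype (log2 fold change 0.67, SE 0.140; 1.12 after loess normalisation).

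**Figure D1:**
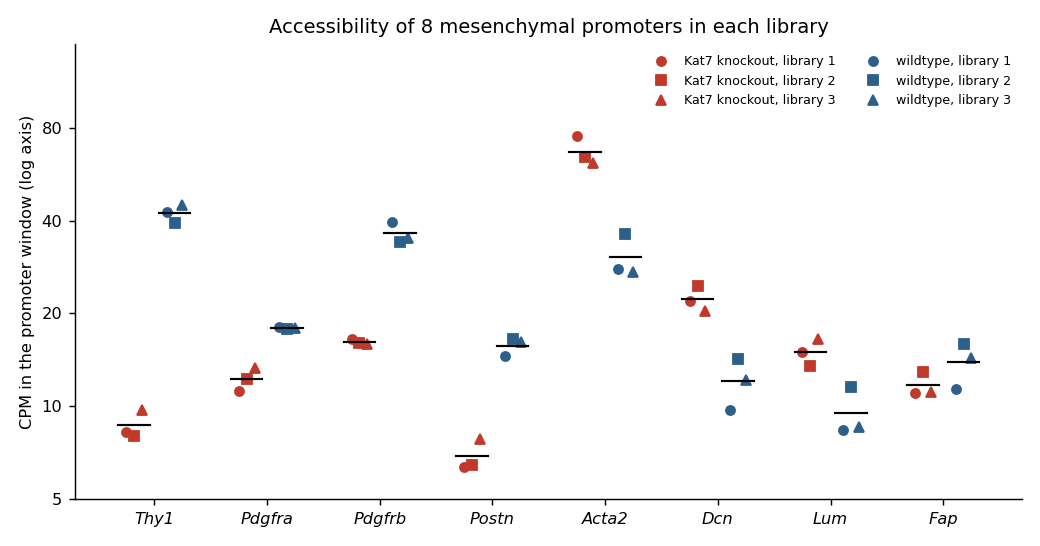
CPM in the promoter windows of the 8 genes on a log axis, with knockout libraries in red left of wildtype libraries in blue, a symbol for each library number and a black bar at the mean of 3. Thy1, Pdgfra, Pdgfrb and Postn lie below wildtype in all 3 knockout libraries, Acta2, Dcn and Lum lie above, and the groups of Fap overlap.

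All 8 windows passed the filter on low counts. By the call rule used for all windows, 4 of the 8 were lower and 3 higher in knockout, beside 20.2% and 6.36% of all tested windows; since the genes were picked on this contrast, nothing is read from those counts. Without wildtype library 1 Fap was counted among the lower ones too, and after loess normalisation Pdgfra was not. The groups did not overlap for 7 of the 8, as for 38.2% of all tested windows (24.6% with knockout below and 13.5% with knockout above). Their median log2 fold change was -0.40. The 8 windows shared further properties that were not part of the choice. Each was 5001 bases long, which is also the median width over all windows. Each shared no base with another window, which is the common case, since 6243 of all 27095 windows share bases. Each also lay in the third quartile of windows by mean level. In that quartile 43.2% of windows were lower and 9.28% higher in knockout, against 1.35% and 2.26% in the first, 32.5% and 4.58% in the second and 3.72% and 9.32% in the fourth.

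Because the windows have 1 length, the levels can be ordered. In knockout the order was Acta2, Dcn, Pdgfrb, Lum, Pdgfra, Fap, Thy1 and Postn, with means from 67.0 CPM at Acta2 to 6.88 CPM at Postn. The ranges over libraries overlapped for Pdgfrb and Lum and for Pdgfra and Fap, and other neighbours in the order were apart. In wildtype the order was Thy1, Pdgfrb, Acta2, Pdgfra, Postn, Fap, Dcn and Lum, from 42.3 CPM at Thy1 to 9.47 CPM at Lum. There the ranges of Thy1 and Pdgfrb, of Pdgfrb and Acta2, and of each pair of neighbours from Postn to Lum overlapped. Thy1, the most open of the 8 in wildtype, was next to last in knockout. Summed over the 8 windows, accessibility was 156 to 166 CPM in knockout and 172 to 186 CPM in wildtype.

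Wildtype library 2 was often the wildtype library nearest to knockout, at these genes as over all called windows. Of the 7 genes called by the rule above, 6 had wildtype library 2 as the wildtype library nearest to the knockout mean, Postn being the exception. The same library was the nearest for 66.6% of all 6589 called windows. Acta2, Dcn, Lum and Fap were 0.21 to 0.29 above the wildtype mean in that library on the log2 scale. Postn was 0.07 above the mean there, and Thy1, Pdgfrb and Pdgfra were at -0.11, -0.09 and -0.01. Among knockout libraries no deviation from the group mean exceeded 0.19. With any one library left out, the log2 fold changes of the 8 genes kept their signs.

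**Figure D2:**
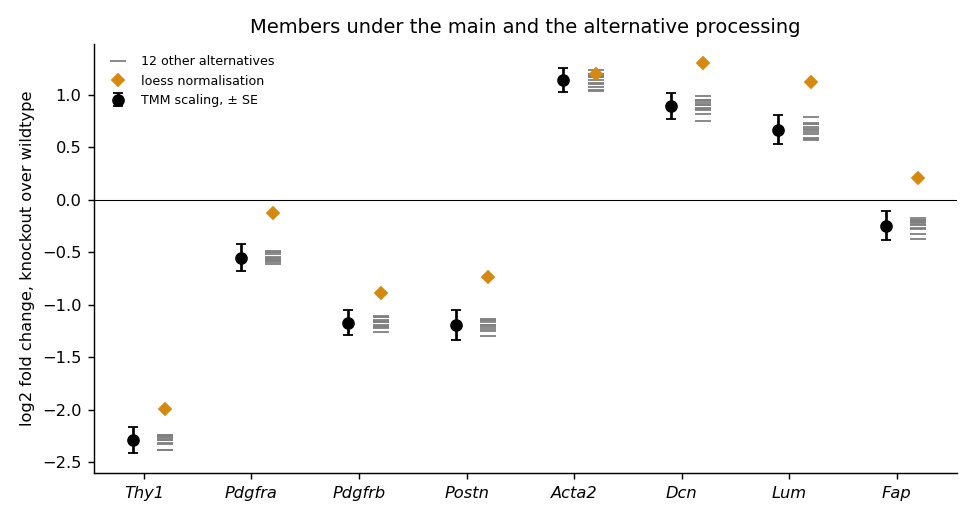
Log2 fold change of each of the 8 genes, knockout over wildtype, as fitted with TMM scaling (black, with SE), after loess normalisation (orange diamonds) and under 12 other alternatives (grey dashes). Loess normalisation moves every gene upwards, turns the sign of Fap (-0.24 against 0.21) and brings Pdgfra to -0.12, while the other alternatives stay near the black points.

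Windows next to the 8 genes were examined to see how far each difference extended. Of 39 distinct neighbours tested, up to 3 on either side of each gene, 13 fell and 4 rose, beside 20.2% and 6.36% of all tested windows, with a median log2 fold change of -0.01. The 4 higher calls became 1 without wildtype library 1. Thy1 stood alone among the near neighbours that were tested. C1qtnf5 and Mfrp, 58.4 kb downstream, have the same window and were not tested. The predicted gene Gm10688, 47.4 kb upstream, had 0.09 (adjusted p = 0.893), and Usp2, a deubiquitinase gene 23.6 kb downstream, had 72.4 ± 1.85 CPM in knockout and 72.9 ± 0.692 CPM in wildtype (-0.01, adjusted p = 0.967). The nearest neighbour of Thy1 that fell was Gm3898, 222.4 kb upstream (-1.09, SE 0.143, adjusted p = 4.65e-13).

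At Acta2 the nearest windows did not pass: Fas, the death receptor gene 34.3 kb upstream, had -0.01 (adjusted p = 0.952), and Stambpl1, a deubiquitinase gene 64.1 kb downstream, 0.26 (adjusted p = 0.0947). Farther downstream Ankrd22 (89.3 kb, 0.30, adjusted p = 0.0406) and the lipase gene Lipm (155.4 kb, 0.49, adjusted p = 0.000155) rose, and upstream Ch25h, the cholesterol 25-hydroxylase gene, fell (220.1 kb, -0.49, adjusted p = 0.000121). Ankrd22 did not pass without wildtype library 1 (adjusted p = 0.209, the highest of its alternatives, which began at 0.000149) or without knockout library 3 (0.0781). Ch25h did not pass after loess normalisation (0.056, the highest, from 3.55e-07).

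Dcn and Lum lie 86.0 kb apart in a row of proteoglycan genes. Epyc, which encodes the cartilage proteoglycan epiphycan 78.6 kb beyond Lum, rose as well (4.72 ± 0.579 CPM in knockout and 3.03 ± 0.974 CPM in wildtype, log2 fold change 0.65, adjusted p = 0.0307). Kera, the gene of keratocan between Lum and Epyc, had few counts and did not pass (0.31, adjusted p = 0.513), nor did 4930473O22Rik, the window next to Lum (-0.13, adjusted p = 0.64), nor Mir3966 on the other side of Dcn (0.32, adjusted p = 0.693). The call at Epyc was lost without wildtype library 1 (adjusted p = 0.345, the highest of its alternatives, which began at 0.00371), without wildtype library 3 (0.113) and without knockout library 2 (0.2).

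Around the PDGF receptors more windows fell. Upstream of Pdgfrb, Cdx1, an intestinal homeobox gene (8.0 kb, -0.37, adjusted p = 0.00933), Slc6a7, a proline transporter gene (30.0 kb, -0.82, adjusted p = 6.5e-12), and Camk2a, a neuronal kinase gene (119.5 kb, -0.87, adjusted p = 3.94e-12), were lower. Downstream the macrophage receptor gene Csf1r was lower (60.4 kb, -0.80, adjusted p = 3.28e-05), while Hmgxb3 (0.18) and Slc26a2 (0.03) did not pass. Near Pdgfra, Kit, the stem cell factor receptor gene (422.7 kb, -0.81, adjusted p = 4.46e-11), Gm19590 (-0.70, adjusted p = 4.21e-06) and Kdr, the vascular endothelial growth factor receptor gene (827.1 kb, -1.37, adjusted p = 4.83e-11), fell downstream. Gsx2, a homeobox gene 76.7 kb upstream, fell too (-0.65, adjusted p = 0.00473), and the nearest window, Gm19583 at 42.0 kb, did not pass (0.33). Cdx1 did not pass without wildtype library 1 (adjusted p = 0.065), knockout library 2 (0.0643) or knockout library 3 (0.123, the highest of its alternatives, from 4.12e-07). Gsx2 did not pass without wildtype library 3 (0.0787) or after loess normalisation (0.207, the highest, from 0.00508), nor did Gm19590 (0.124, the highest, from 1.43e-06) and Csf1r (0.0528, the highest, from 5.73e-05) after loess normalisation.

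Postn had Trpc4, a cation channel gene, 205.0 kb upstream, which fell (-0.96, adjusted p = 0.000173), and Ufm1, the gene of a ubiquitin-like modifier, at 496.3 kb, which rose (0.34, adjusted p = 0.0142). Downstream the nearest window, Supt20, did not pass (332.0 kb, 0.08). Fap lies near Dpp4, a related protease gene, which had 11.0 ± 0.356 CPM in knockout and 13.3 ± 0.513 CPM in wildtype (-0.28, adjusted p = 0.12). Its nearest windows, Ifih1 (0.14) upstream and the glucagon gene Gcg (0.31) downstream, did not pass either, and the far ones, Slc4a10 (528.5 kb, -0.76, adjusted p = 3.2e-05) and Kcnh7 (610.3 kb, -0.51, adjusted p = 0.00941), fell. Ufm1 did not pass without wildtype library 1 (0.088, the highest of its alternatives, from 4.03e-05), and Slc4a10 did not after loess normalisation (0.118, the highest, from 4.41e-05). Kcnh7 did not pass without wildtype library 3 (0.0927), without knockout library 2 (0.0916) or after loess normalisation (0.803, the highest, from 0.00318).

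**Figure D3:**
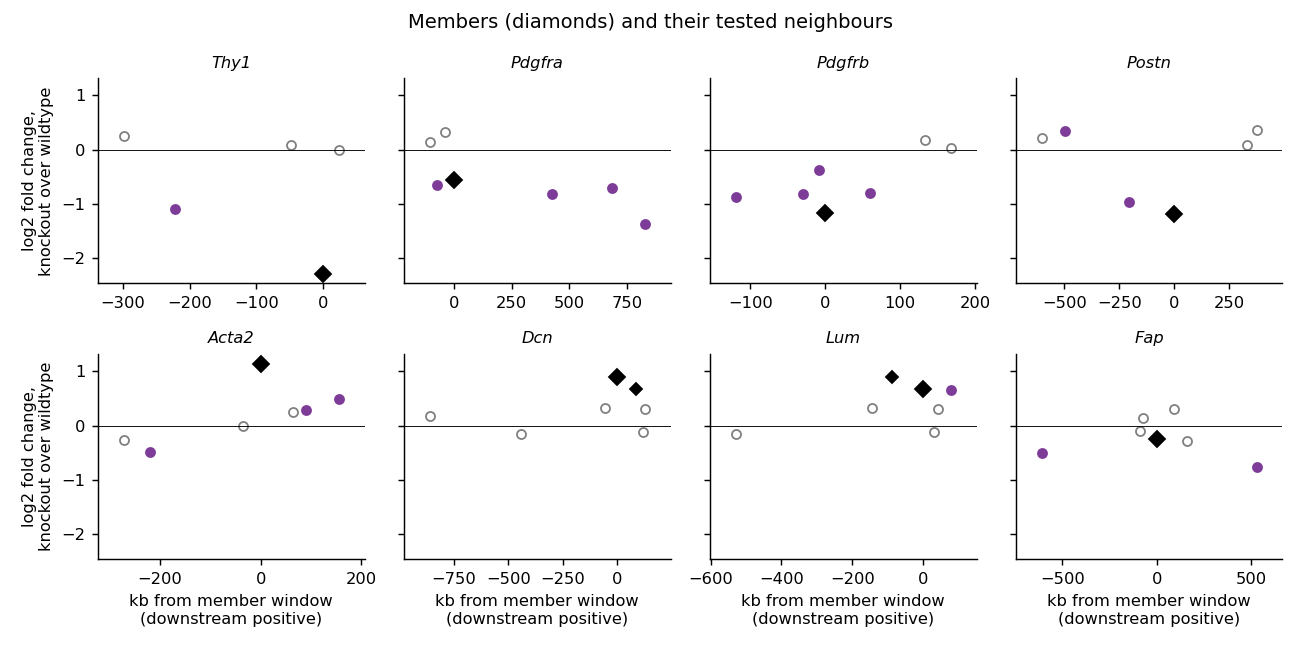
Log2 fold change, knockout over wildtype, of each of the 8 genes (large diamond at 0) and of its tested neighbours by distance in kb along the gene's direction; filled circles passed at an adjusted p under 0.05, open circles did not, and small diamonds are Dcn and Lum in each other's panel. Thy1 and Acta2 lie away from their nearest neighbours, while 4 of the 6 neighbours of Pdgfrb and of Pdgfra fell.

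Other genes of fibroblasts fell more often than they rose. Of 30 fibroblast genes outside the 8, 13 fell, 3 rose and 14 did not pass, beside 20.2% and 6.36% of all tested windows, with a median log2 fold change of -0.26 against 0.04. In the level quartile of the 8 genes 43.2% fell and 9.28% rose, and the counts of the fibroblast list lie near those shares. The list was not matched to that quartile, however. Its means in knockout ran from 0.776 to 121 CPM, across quartiles whose shares differ. Sparc, which encodes a collagen-binding matrix protein, had 5.39 ± 1.13 CPM in knockout and 17.6 ± 0.865 CPM in wildtype (log2 fold change -1.71, SE 0.149, adjusted p = 1.67e-28). Tnxb, the tenascin-X gene (-1.58, adjusted p = 4.2e-16), Loxl1, a lysyl oxidase that cross-links elastin (-1.51, adjusted p = 4.08e-31), Col5a2 (-1.39, adjusted p = 7.42e-07) and Col1a2 (-1.34, adjusted p = 1.74e-10), genes of fibrillar collagen chains, fell as well. Those that rose were Lox, a collagen cross-linking enzyme (43.2 ± 4.27 CPM in knockout and 21.9 ± 1.77 CPM in wildtype, 0.98, adjusted p = 2.09e-16), Gas1, a hedgehog co-receptor (0.67, adjusted p = 2.98e-07), and Col12a1, a fibril-associated collagen (0.60, adjusted p = 2.19e-06). Col1a1, the partner chain of Col1a2, did not pass (40.3 ± 2.46 CPM in knockout and 44.0 ± 3.01 CPM in wildtype, -0.12, adjusted p = 0.455). The enzymes Lox and Loxl1, of the same family, thus lay on opposite sides. After loess normalisation 7 genes of the list were higher.

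Mural and contractile genes other than Acta2 fell or did not pass. Of 26, 25 were tested, 10 fell and none rose, with a median log2 fold change of -0.26. Of all tested windows 20.2% fell and 6.36% rose, and in the level quartile of the 8 genes 43.2% fell and 9.28% rose. A list of this size with no rise is near those shares on the higher side. The list was not matched to that quartile, since its means in knockout ran from 0.631 to 252 CPM. At an unadjusted p under 0.05, 1 was higher, and DESeq2 called 1 higher. Cspg4, which encodes the pericyte proteoglycan NG2, fell about as far as Thy1, to 6.54 ± 1.40 CPM in knockout, against 31.3 ± 4.24 CPM in wildtype (-2.26, SE 0.133, adjusted p = 9.32e-62). Tpm1, a tropomyosin gene (-1.24, adjusted p = 1.92e-25), Actg2, the gene of smooth muscle gamma-actin (7.11 ± 0.482 CPM in knockout and 16.3 ± 1.93 CPM in wildtype, -1.20, adjusted p = 2.23e-15), Kcnj8, a potassium channel of pericytes (-1.04, adjusted p = 0.000101), and Rgs5, a G protein regulator of pericytes (-0.84, adjusted p = 3.44e-12), fell. Acta2 was thus higher in knockout while its closest relative in smooth muscle, Actg2, was lower. Of the list 15 genes did not pass, among them the contractile genes Tagln (-0.11), Myh11 (-0.17) and Cnn1 (-0.19). The number of higher genes was 3 after loess normalisation, 2 with library totals only, and 1 each in the fits that left out wildtype library 2, knockout library 1 or, in turn, knockout library 3.

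Of 14 small leucine-rich proteoglycan genes other than Dcn and Lum, 4 fell, 1 rose and 9 did not pass, with a median log2 fold change of -0.21, beside 20.2% lower and 6.36% higher among all tested windows. Chad, which encodes chondroadherin of cartilage, had 12.0 ± 2.38 CPM in knockout and 27.4 ± 4.52 CPM in wildtype (-1.19, adjusted p = 2.92e-20). Podn (-0.76, adjusted p = 4.13e-06), the fibromodulin gene Fmod by a narrow margin (-0.68, adjusted p = 0.0487, a window that shares bases), and Prelp (-0.56, adjusted p = 0.00228) also fell, and Epyc, beside Lum, was the gene that rose. Bgn, the gene of biglycan, the nearest relative of decorin, had few counts and did not pass (1.66 ± 0.762 CPM in knockout and 2.66 ± 0.483 CPM in wildtype, -0.69, adjusted p = 0.144), though it did after loess normalisation (0.0299, the lowest of alternatives that reached 0.423). Without wildtype library 3 or knockout library 1, 2 genes of the list were lower, Prelp not among them (adjusted p = 0.0767 and 0.0667, within 0.000726 to 0.649 over its alternatives). Fmod passed in 1 of 13 alternatives, the replicate block (adjusted p = 0.0221), and not in the other 12, which covered each left-out library, other scalings, DESeq2 and other filters (up to 0.379), and Epyc was lost as given above.

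Genes of PDGF and TGF-beta signalling moved in both directions. Of 22, 20 were tested, 6 fell and 4 rose, with a median log2 fold change of 0.02, beside 20.2% and 6.36% of all tested windows. Among the ligands of the 2 receptors described above, Pdgfd, which acts mainly on PDGFRB, fell (9.32 ± 0.904 CPM in knockout and 27.2 ± 3.50 CPM in wildtype, -1.55, adjusted p = 2.03e-31), and Pdgfa (0.37, adjusted p = 0.0167) and Pdgfc (0.30, adjusted p = 0.0296), which act on PDGFRA, rose. Pdgfb did not pass (-0.25, adjusted p = 0.0861) but was lower without wildtype library 2 (0.0176), wildtype library 3 (0.0303) or knockout library 1 (0.00256), within 0.000697 to 0.314 over its alternatives. Ccn2, a connective tissue growth factor gene induced by TGF-beta (-1.50, adjusted p = 2.18e-26), the receptor-like gene Pdgfrl (-1.12, adjusted p = 3.74e-11) and Tgfbi (-0.91, adjusted p = 7.93e-14) fell, and Tgfb1 (0.34, adjusted p = 0.0185) and the inhibitor gene Smad7 (0.32, adjusted p = 0.0397) rose. The calls on the higher side, though not the size of every rise, depended on single libraries. None of the list was higher without wildtype library 1, and 2 were without wildtype library 3 or knockout library 2. Pdgfc was also lost without knockout library 1 or 3. Without wildtype library 1 the log2 fold change was still 0.38 at Pdgfa, 0.31 at Tgfb1 and 0.31 at Smad7. The adjusted p reached 0.0854 for Pdgfa, 0.172 for Pdgfc, 0.152 for Tgfb1 and 0.173 for Smad7 over their alternatives, from 2.09e-06, 0.000452, 2.13e-05 and 2.95e-05, and 7 genes of the list were higher after loess normalisation.

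Factors of mesenchymal identity and transition fell or did not pass. Of 14, 6 fell and none rose, with a median log2 fold change of -0.44, beside the same 20.2% and 6.36% of all tested windows and 43.2% and 9.28% in the level quartile of the 8 genes. The counts of the list lie near the shares of that quartile, but the list was not matched to it in level. Its means in knockout ran from 0.775 to 100.3 CPM. None was higher at an unadjusted p under 0.05 either, and DESeq2 called 1 higher, as did edgeR without wildtype library 2. Meox2, a mesodermal homeobox gene, had 2.35 ± 0.774 CPM in knockout and 9.70 ± 0.602 CPM in wildtype (-2.05, adjusted p = 2.73e-22). Twist1 (-1.15, adjusted p = 6.03e-15), Meox1 (-1.01, adjusted p = 3.2e-06) and Prrx1 (-0.99, adjusted p = 7.95e-13), further transcription factor genes, fell with it. Snai1 (-0.27, adjusted p = 0.0874) and Snai2 (0.23, adjusted p = 0.143), repressors of epithelial genes, did not pass. Their levels were above those of the other factors named here, with 100.3 ± 13.7 and 80.3 ± 3.52 CPM in knockout and 120.8 ± 12.5 and 68.6 ± 5.82 CPM in wildtype. Each passed in some alternatives: Snai1 without wildtype library 2 (adjusted p = 0.00086), wildtype library 3 (0.0136) or knockout library 1 (0.000304), within 9.62e-05 to 0.46, and Snai2 without wildtype library 2 (0.0289), within 0.00222 to 0.469.

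**Figure D4:**
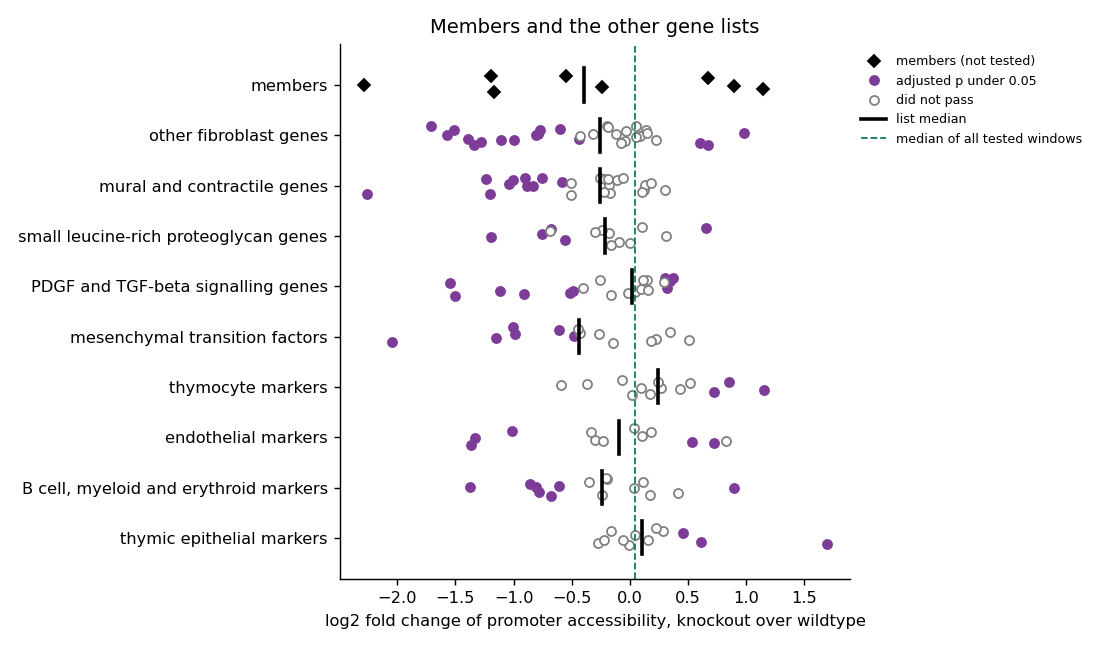
Log2 fold change, knockout over wildtype, of every tested window of the 8 genes (diamonds, not tested here) and of 9 other lists (filled where the adjusted p was under 0.05), with list medians as black bars and the median of all tested windows, 0.04, as a dashed line. In the mural list 10 windows lie filled on the lower side and none on the higher, while thymocyte and thymic epithelial markers have 3 each filled on the higher side.

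Promoters that mark other cell types a preparation from thymus could hold also moved, beside 20.2% lower and 6.36% higher among all tested windows. Of 12 endothelial markers 3 fell and 2 rose (median -0.10): Kdr (-1.37), Pecam1 (-1.33, adjusted p = 6.24e-17) and Cldn5 (-1.01) fell, the angiopoietin receptor gene Tek (0.72, adjusted p = 6.02e-07) and Flt1 (0.54) rose, and Cdh5 did not pass (-0.30, adjusted p = 0.203). The summed level of the endothelial list was 151 to 162 CPM in knockout and 147 to 149 CPM in wildtype. Of 15 matched B cell, myeloid and erythroid markers 6 fell and 1 rose (median -0.24), with Hba-a1 (-1.38, a window that shares bases), Cd79b (-0.86), Csf1r (-0.80) and Lyz2 (-0.79) the largest falls and Ptprc, the pan-leukocyte gene, the rise (0.89, adjusted p = 0.0148). Cd79a, a chain of the B cell receptor complex, did not pass (-0.19). Their summed level was 194 to 221 CPM in knockout and 238 to 246 CPM in wildtype. Ptprc did not pass without wildtype library 1 (adjusted p = 0.193, the highest of its alternatives, from 0.00451), wildtype library 3 (0.0847) or knockout library 3 (0.0671), and Hba-a1 did not without wildtype library 1 (0.113, the highest, from 0.000523).

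The sums of the mesenchymal lists lay on the same side as that of the 8 genes: the other fibroblast genes held 591 to 628.6 CPM in knockout and 629.1 to 656 CPM in wildtype, and the mural and contractile genes 998 to 1115 CPM in knockout and 1151 to 1184 CPM in wildtype. Thymic epithelial markers summed to 2277 to 2752 CPM in knockout and 2184 to 2305 CPM in wildtype, with knockout library 1 the highest. Of the 12, 3 rose and none fell, beside 6.36% and 20.2% of all tested windows, with a median log2 fold change of 0.10. The list was highly open, with medians of 164 CPM in knockout and 127 CPM in wildtype. In the fourth level quartile, with a median of 107 CPM, 9.32% of windows rose and only 3.72% fell. The epithelial genes that rose were Foxn1, the master transcription factor of thymic epithelium (299.6 ± 30.8 CPM in knockout and 92.9 ± 24.5 CPM in wildtype, 1.69, adjusted p = 4.98e-36), and the keratin genes Krt5 (0.61, adjusted p = 2.24e-06) and Krt18 (0.46, adjusted p = 0.000283). At an unadjusted p under 0.05, 1 was lower, and DESeq2 called none lower; 2 were called lower without wildtype library 2 or wildtype library 3, and 3 without knockout library 1. The part of these epithelial differences in those at the 8 genes was not tested. No listed marker was without counts in all 6 libraries. Whether other cells in the preparation contributed to the differences at the 8 genes was not tested.

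**Figure D5:**
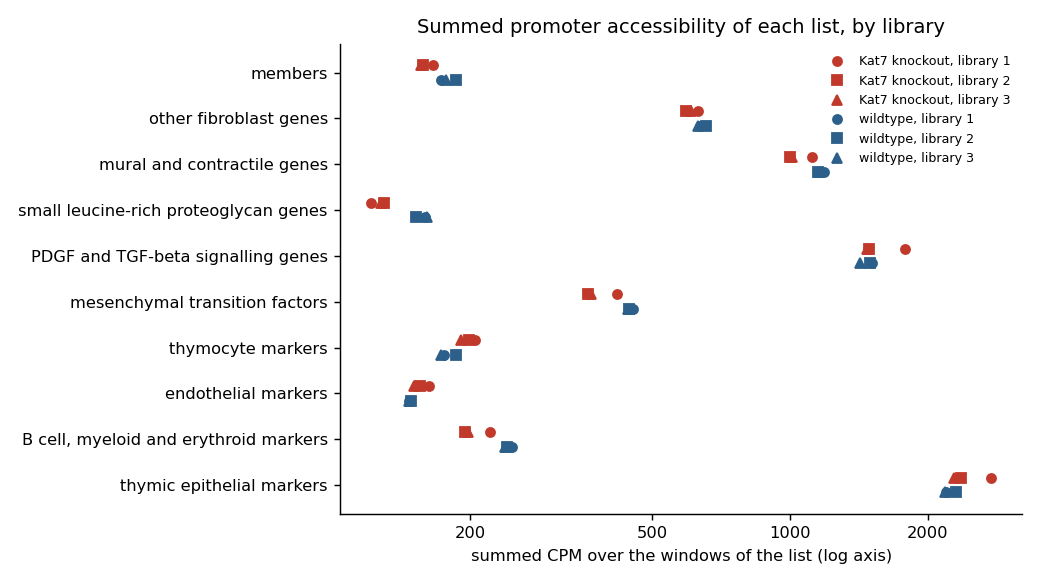
Summed CPM over the windows of each list on a log axis, knockout libraries in red above wildtype libraries in blue, a symbol for each library number. The sums of the 8 genes and of the mural, proteoglycan, transition factor and blood cell lists lie lower in every knockout library than in any wildtype library. That of the other fibroblast genes does so by a narrow margin. The sums of the thymocyte and endothelial lists lie higher.

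Some windows elsewhere in the genome had nearly the same course over the 6 libraries. By root mean square distance of log2 CPM relative to the wildtype mean, over 6 libraries and among windows that share no base, windows near to Thy1 were Oxgr1, an oxoglutarate receptor gene (distance 0.0631, log2 fold change -2.28), and Chic1 (0.106, -2.20). Oxgr1 had 5.99 ± 0.904 CPM in knockout and 29.0 ± 1.77 CPM in wildtype. The nearest to Acta2 were the RIKEN clone genes 9230112J17Rik (0.0654, 1.18), 1810046K07Rik (0.0682, 1.13) and 4930452G13Rik (0.0909, 1.09), of which the first held 61.4 ± 7.64 CPM in knockout and 27.1 ± 2.78 CPM in wildtype. These windows were picked for their likeness on the same contrast, so their values are a description.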

How the data were processed

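Promoter accessibility was measured by ATAC-seq in 6 libraries. Per the labels and the submitters' processing notes, the authors deposited whole-number counts per gene window, made with featureCounts on mm10; the aligner, duplicate removal, any shift for the transposase offset and whether ends or fragments were counted: not given in the sources used here. All 6 library tables held the counts of the series table. Symbols came from the library tables, joined by gene identifier. Of 170 listed genes, 2 matched through older names and 1 did not match. Of the 27095 windows, 6243 share bases with another, and how reads there were assigned is not stated.

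Counts were tested with edgeR 4.0.16 in R 4.3.3: filterByExpr at its defaults, TMM, robust quasi-likelihood fit and test, two-sided, with Benjamini-Hochberg adjustment over 24817 windows at 0.05. The biological coefficient of variation was 10.9%. The fit was tested on simulated data. The alternatives of scaling (DESeq2 1.42.0 size factors, library totals, loess with limma 3.58.1), the DESeq2 Wald test, no filter, a mean count of at least 50, a replicate block and leaving out each library were tried. Replicates were not identical: chi-square per degree of freedom between libraries of a group was 1.86 to 6.76. A count of 3, the limit for a window at 0, was 0.151 to 0.194 CPM, for counting error only.

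The members and lists were chosen with earlier results of these data known. Named genes were the 8 members, the first 2 of each list and up to 4 called in each direction with the largest change, called and nearest neighbours, and the 3 windows most like Thy1 and Acta2. Of these, 2 are not reported here. Counts and alternatives for thymic epithelial markers, planned as levels only, were added after seeing the data. No p-value is given for the members.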

Additional observations from a re-analysis of the deposited data

How the results depend on the processing

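All 8 genes kept the sign of their log2 fold change under 12 of 13 alternatives. The exception was loess normalisation, under which Fap was 0.21 in place of -0.24; the cause was not tested. Acta2 ranged from 1.04 to 1.24 and Thy1 from -2.38 to -2.0 over all alternatives. Of 61 other named windows past the threshold, 38 passed under every alternative that tested them. Signs turned at Cd3e (-0.0011 with library totals, -0.017 without the filter, -0.10 without wildtype library 2, -0.0043 without wildtype library 3, -0.08 without knockout library 3), and after loess normalisation at Cdh5 (0.13) and Cd79a (0.10). None of these 3 windows had passed.

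Counts of higher windows moved most. Over all windows they were 2937 with library totals, 4320 after loess normalisation, 3937 at a mean count of at least 50 and 689 to 3177 with a library left out. Loess normalisation gave 7 higher for other fibroblast, PDGF and TGF-beta and thymocyte lists, 3 for mural and blood cell lists (with 3 lower blood cell markers), 1 for transition factors, 2 lower proteoglycan genes, 8 higher neighbours and, of thymic epithelial markers, 5 higher and 4 lower. Library totals gave 2 higher mural genes, 0 proteoglycan genes, 1 transition factor, 0 blood cell markers, 7 neighbours and 6 epithelial markers. Another 3 epithelial markers were lower with library totals. The DESeq2 Wald test gave 1 higher mural gene, 1 transition factor and 2 lower proteoglycan genes, and no filter 1 higher mural and 0 proteoglycan genes and 2 lower epithelial markers. A mean count of at least 50 gave 2 higher mural genes, 7 signalling genes, 2 transition factors, 0 blood cell markers, 10 neighbours and 6 epithelial markers. Another 2 epithelial markers were lower at that filter. The cause of these shifts was not tested.

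With a library left out, 0 to 1 mural genes were higher, 2 to 3 proteoglycan genes lower and 0 to 1 higher, 0 to 5 signalling genes higher, 0 to 1 transition factors higher, 0 to 1 thymocyte markers lower, 0 to 1 blood cell markers higher, 0 to 3 epithelial markers lower and 1 to 5 neighbours higher.

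Deviations of same-numbered libraries from their group means correlated at r = 0.374, 0.0284 and 0.389 for replicate numbers 1 to 3. The labels do not say whether the numbers pair the samples or mark a shared batch, and this was not tested. With the replicate block 5537 windows were lower and 2824 higher, against 5011 and 1578 in the main fit. The block gave 1 mural gene and 1 transition factor higher, and 1 thymocyte marker and 1 epithelial marker lower. Of named windows, 3 more passed with it and none was lost. Low levels limit Bgn, Kera, Epyc, Fmod, Cd4, Cd8a, Ptprc and Hba-a1, and the neighbours Gm10688, Gm19583 and Mir3966. The windows of all these genes averaged under 5 CPM in both groups.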
